A study of Mus musculus with 2 samples.

Results

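The synapsins and the integral membrane proteins of synaptic vesicles were examined as 9 genes: Syn1, Syn2, Syn3, Syp, Synpr, Syngr1, Syngr3, Sv2a and Sv2b. Members were taken by gene name from the deposited transcript tables, whatever their level, and are 9 of 18510 annotated genes with at least 1 read. The tissue was the left cerebral cortex, taken at an age of 14 days from females of B6CASTF1/J, an F1 hybrid between C57BL/6J and CAST/EiJ, and the labels name no treatment. The series holds 1 group of 2 libraries, called biological replicates 1 and 2, each from 2 µg of total RNA, labelled as spiked with ERCC and SIRV RNA. ERCC reads were present in both libraries and SIRV reads numbered 0 in both. Replicate 1 is labelled in a way that may mean a pool of females, replicate 2 as 1 female, and the donor entry is the same for both, so whether they are separate animals is not certain. With 1 group there is no comparison of conditions, so tests here set the libraries against each other and weigh counting error alone.

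Synaptic vesicles store neurotransmitter in the axon terminal and release it by fusing with the plasma membrane. Synapsins are phosphoproteins that bind the outside of the vesicle, cluster vesicles and hold them in a reserve pool until kinases release them. Synaptophysin (Syp), synaptoporin (Synpr) and the synaptogyrins (Syngr1, Syngr3) cross the membrane repeatedly and belong to related families, while the SV2 proteins (Sv2a, Sv2b) resemble membrane transporters and bind synaptotagmin. In cortex these genes are neuronal and their proteins serve as standard markers of nerve terminals.

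The choices between transcript ends, starts and splice sites that the reads resolved are shown first, as sequence. Sequences of coding parts come from GENCODE M21 transcripts on GRCm38, run 5′ to 3′ on the gene's strand and leave out the introns inside the positions given. In Syn1 the last intron ends at either of a pair of acceptors, and the 38 bases between them (chrX:20861572-20861609, minus strand), in capitals, are kept in synapsin Ia and spliced out in Ib.
Syn1 Ia, chrX:20861548-20862528: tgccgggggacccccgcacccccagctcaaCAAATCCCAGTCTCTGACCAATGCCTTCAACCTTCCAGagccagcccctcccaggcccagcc
Syn1 Ib, chrX:20861548-20862528: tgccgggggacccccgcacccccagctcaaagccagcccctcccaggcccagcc
In Syn2 an exon either splices on to the IIa exons or runs past the donor into its own end. The first coding bases that differ are in capitals.
Syn2 IIa, chr6:115274196-115278160: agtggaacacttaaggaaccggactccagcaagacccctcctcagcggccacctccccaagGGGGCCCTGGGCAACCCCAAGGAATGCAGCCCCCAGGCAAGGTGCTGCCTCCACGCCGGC
Syn2 IIb, chr6:115274196-115274321: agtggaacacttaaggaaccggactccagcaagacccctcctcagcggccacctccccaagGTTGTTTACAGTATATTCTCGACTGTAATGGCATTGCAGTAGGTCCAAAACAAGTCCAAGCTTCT
In Syngr1 the donor of the exon before the last joins a distal or a proximal last exon, and capitals mark the first 60 bases of each.
Syngr1 distal, chr15:80111700-80115914: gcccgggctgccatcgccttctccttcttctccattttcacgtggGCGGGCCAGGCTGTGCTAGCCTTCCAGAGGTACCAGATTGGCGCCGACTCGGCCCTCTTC
Syngr1 proximal, chr15:80111700-80113225: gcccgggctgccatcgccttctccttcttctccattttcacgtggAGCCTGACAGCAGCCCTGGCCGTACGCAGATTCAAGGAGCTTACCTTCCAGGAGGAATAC
In Synpr the choice of start sets the first coding bases, in capitals, ahead of an exon that both share.
Synpr downstream start, chr14:13454329-13493540: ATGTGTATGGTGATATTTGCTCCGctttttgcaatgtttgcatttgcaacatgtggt
Synpr upstream start, chr14:13284985-13493540: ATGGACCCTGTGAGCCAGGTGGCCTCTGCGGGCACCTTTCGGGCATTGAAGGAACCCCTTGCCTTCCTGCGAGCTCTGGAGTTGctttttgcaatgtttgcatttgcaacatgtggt
In Syp models with a donor outside the annotation leave out the 3 coding bases in capitals, at the end of their exon.
Syp donor, chrX:7645167-7648586: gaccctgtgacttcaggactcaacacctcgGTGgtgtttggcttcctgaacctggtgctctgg

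Levels are given as RPM, a gene's reads per 1000000 mouse reads of the library. A long read is 1 molecule read along its length, so RPM was not divided by transcript length, and the length of the main transcript is given beside each level. Syp, which encodes an abundant integral protein of the vesicle, led the group, and Syn3 was at the limit of detection. The 9 genes took 4911 reads in replicate 1 and 3262 in replicate 2, which is 0.458% and 0.433% of mouse reads. Their median level was 380 RPM, against 10.8 RPM over all genes with reads and 30.9 RPM over the 11339 genes with 10 or more reads. The levels of neighbours in the order did not overlap between the libraries, from Syp down through Syngr3, Syn1, Syn2, Sv2a, Syngr1, Sv2b and Synpr to Syn3. Divided by the length of the main transcript, the order was the same except that Synpr (49.1 RPM per kilobase) passed Sv2b (32.5). Over annotated models alone the order of the means changed, with Syn2 (543 RPM) above Syn1 (414), and Sv2b (175) and Synpr (145) above Syngr1 (108.3).

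**Figure D1:**
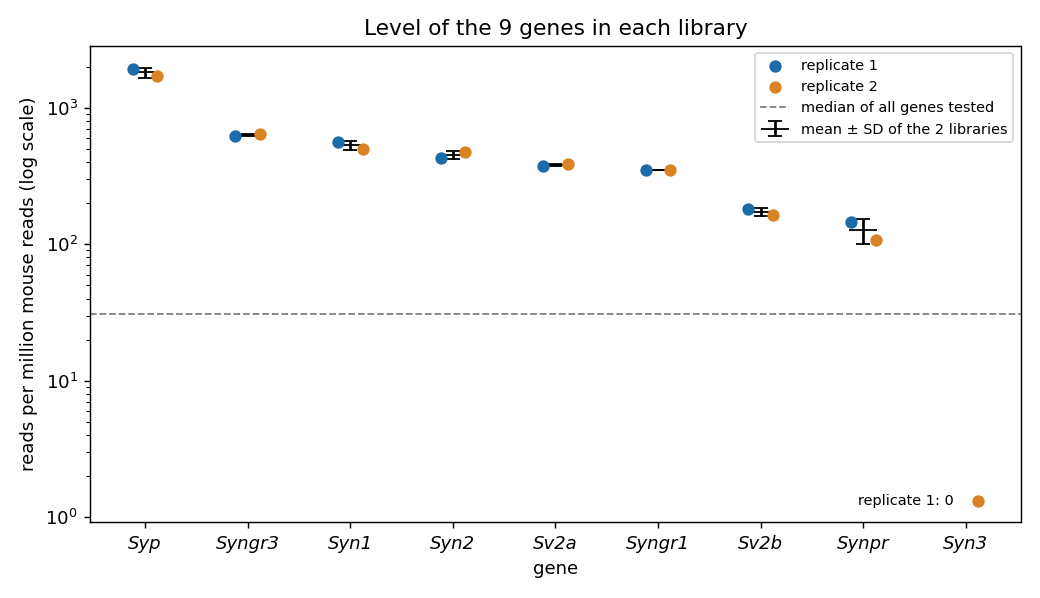
Level of each gene in replicate 1 and replicate 2 in RPM on a log axis, with the mean and SD of the 2 libraries as a bar and the median of all genes tested as a dashed line. Syp lies highest at 1921 and 1707 RPM, Syn3 lies lowest at 0 and 1.33, and the other 7 genes stand above the dashed line at 30.9.

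The libraries held 1072344 and 753520 mouse reads, so 1 read was worth 0.933 and 1.33 RPM. A gene with 0 reads could have had up to 2.80 and 3.98 RPM, the worth of 3 reads, by counting error. ERCC spike-ins took 1.37% and 1.16% of all reads. Defining cortical genes were present: the 10 genes of excitatory neurons, led by Nrgn, Slc17a7 and Camk2a, summed to 4730 and 4332 RPM and the 8 of inhibitory neurons, led by Gad1, Lamp5 and Sst, to 686 and 587 RPM. Of 10 genes of hippocampus, thalamus, striatum and cerebellum, led by Ppp1r1b, Drd1 and C1ql2, 2 were at 0 (Pcp2 and Cbln3) and the sum was 344 and 247 RPM. The lists of astrocytes (led by Aldoc, Gja1 and Slc1a3), microglia (among them P2ry12 and Csf1r) and endothelial and mural cells (Cldn5, Rgs5, Vtn) had no gene called between the libraries. The 8 genes of myelinating oligodendrocytes summed to 5799 and 3450 RPM, of which Mbp alone had 3673 and 2142. In this list 5 genes were called lower in replicate 2, among them Mbp, Mag, Cnp and Mobp. Mog, with 5 reads in each library (4.66 and 6.64 RPM), was higher and not called, and Cldn11 and Ermn were not called. Ppp1r1b was also called lower. The part of these differences in any result below was not tested.

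No member was called between the libraries. Each gene with 10 or more reads had its split between the libraries set against the split of all mouse reads, in an exact binomial test (two-sided). Values of p were adjusted by Benjamini-Hochberg over all 11339 genes, and a gene under 0.05 is called. Of the 8 members tested 0 were called, against a background of 0.882% of genes (0.52% lower in replicate 2). At an unadjusted p under 0.05 there were 2 members (Syp and Synpr), against 8.6% of genes. The members' median log2 ratio, replicate 2 over replicate 1, was -0.06, with 4 higher and 4 lower, and that of all genes tested was -0.003. Scaled to ERCC reads in place of mouse reads, the median over all genes moved to 0.24 and 2.85% of genes were called (304 higher in replicate 2 and 19 lower). At that scaling Syn2 (log2 ratio 0.39, adjusted p 0.0115) and Syngr3 (0.28, 0.0419) were called, while Syp, Syn1 and Sv2b changed sign. In bulk tissue a difference in the share of nerve cells and a difference in RNA per cell cannot be told apart.

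**Figure D2:**
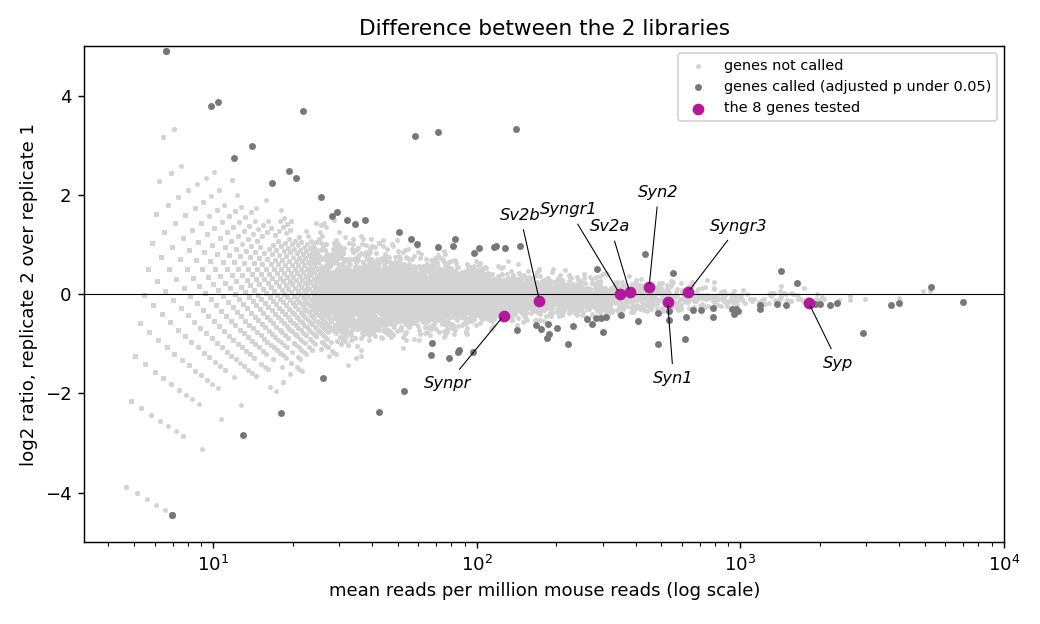
Log2 ratio of replicate 2 over replicate 1 against mean level on a log axis, for all genes with 10 or more reads (light grey), genes called (dark grey) and the 8 members tested (magenta), with 7 genes beyond the vertical axis. The members lie between -0.43 (Synpr) and 0.14 (Syn2), and none is among the genes called.

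Synapsin I was read as both of its annotated forms in near-constant proportion. Syn1 (ENSMUSG00000037217.15) lies on chrX:20860511-20921004 on the minus strand and encodes the synapsin first described as a kinase substrate of nerve terminals. It had 597 reads in replicate 1 and 378 in replicate 2, or 557 and 502 RPM (529 ± 38.9, SD, n = 2), rank 207 of all genes with reads. The log2 ratio was -0.15, with an adjusted p of 0.728 by the exact binomial test. The intron that skips the capitals shown above (chrX:20861572-20862498, Syn1-202, synapsin Ib, 670 amino acids, transcript of 3261 bases) had 306 of the 540 reads of replicate 1 at that donor and 202 of 347 in replicate 2. That is 56.7% (95% Wilson interval 52.5 to 60.8) and 58.2% (53.0 to 63.3), or 57.4% ± 1.09 (SD, n = 2). The intron that keeps them (chrX:20861610-20862498, Syn1-201, synapsin Ia, 706 amino acids, 3209 bases) had the other 234 and 145 reads. The intervals of the libraries overlap, and Fisher's exact test gave an unadjusted p of 0.677 for the difference. Over full chains alone, Ib had 189 and 102 reads and Ia 143 and 74, and the third chain, with a splice site outside the annotation, had 2 and 0.

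Many Syn1 reads did not reach the start of the gene. A chain is a model's set of introns, and the deposited tables call a chain incomplete when it matches only part of an annotated one, with a suffix keeping the 3′ end. Suffix reads were 34.2% of Syn1 reads in replicate 1 and 43.1% in replicate 2. Along the main chain the count changed little over the first 9 junctions, from 354 to 383 reads in replicate 1 and from 191 to 218 in replicate 2. It then rose to 467 and 280 at the tenth junction and to 540 and 341 at the eleventh, 1741 and 1653 bases from the 3′ end. The share of reads on annotated models was 55.6% and 46.6%, a difference of -9.05 points with an adjusted p of 0.704 by Fisher's exact test.

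Synapsin II was read mostly as the short form IIb. Syn2 (ENSMUSG00000009394.13, chr6:115134902-115282006, plus strand) encodes a synapsin that shares the central domain of synapsin I and has its own tails. It had 459 and 356 reads, 428 and 472 RPM (450 ± 31.4, SD, n = 2), rank 271, with a log2 ratio of 0.14. The intron that joins the shared exon to the IIa exons (chr6:115274257-115278100, Syn2-201, 586 amino acids, 2708 bases) had 136 reads in replicate 1 and 113 in replicate 2. Spliced models whose exon ran at least 20 bases past that donor, as IIb does (Syn2-202, 479 amino acids, 3854 bases), had 269 and 182 reads. IIb was thus 66.4% (Wilson interval 61.7 to 70.8) and 61.7% (56.0 to 67.1) of the spliced reads at the choice, or 64.1% ± 3.34 (SD, n = 2). With single-exon models counted as well it was 69.9% and 67.6%, though the added models begin in the intron ahead of that exon. Both libraries put IIb above IIa, and their intervals overlap. The chain of IIb is shared by Syn2-202, Syn2-203 and Syn2-205, so these annotated transcripts cannot be told apart by introns. As full chains IIb had 254 and 168 reads and IIa 123 and 102. The next chain, outside the annotation, had 2 reads in each library, as did another of equal count.

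Most Syn2 reads ran through the whole chain. Its first junction had 391 and 282 reads against 404 and 297 at the last junction of IIb, or 96.8% and 94.9%, where the median over 4919 genes was 91.9% and 91.2%. Models of 1 exon that ended at the annotated IIb end held 47 reads in replicate 1 and 54 in replicate 2. These models began at chr6:115272621 and chr6:115270354, inside the intron ahead of the IIb exon (chr6:115263982-115274195), and so hold intron sequence. The tables class them as Genomic, a class of models that overlap a gene but were given to none of its splicing patterns. The annotated share was 82.1% and 75.8%, with an adjusted p of 0.952 by Fisher's exact test.

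Synapsin III was at the limit of detection. Syn3 (ENSMUSG00000059602.14, chr10:86055125-86498896, minus strand), known as the synapsin of developing neurons, had 0 reads in replicate 1 and 1 in replicate 2. That is 0 and 1.33 RPM, under the limits of 2.80 and 3.98 RPM set by 3 reads. The read was in a model of 1 exon labelled Genomic (chr10:86282605-86286029), and no annotated chain of Syn3 was read. Over models on the gene's strand that overlap an annotated Syn3 exon, the level was 0 RPM. Timp3, a metalloproteinase inhibitor gene nested in Syn3 on the other strand, had 26 and 15 reads over Syn3 exons.

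The nested Timp genes and Araf were kept apart from the synapsins by strand in the tables. Timp4, nested in Syn2, had 68 and 42 reads (63.4 and 55.7 RPM), Timp3 27 and 15 (25.2 and 19.9 RPM), and Timp1, nested in Syn1, had 0 in both. Neither Timp3 nor Timp4 was called. Araf, beside Syn1, had 8 and 3 reads over Syn1 exons. Gm17482, which strand does not separate from Syn2, had 0 and 1 reads over Syn2 exons and 1 and 3 in Syn2 introns alone.

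Synaptophysin was the most abundant member and was read almost wholly as a single form. Syp (ENSMUSG00000031144.15) lies on chrX:7638471-7653256 on the plus strand, and its main transcript, Syp-201, encodes 314 amino acids in 2591 bases. It had 2060 and 1286 reads, 1921 and 1707 RPM (1814 ± 152, SD, n = 2), rank 22 of all genes with reads. Replicate 2 was lower, with a log2 ratio of -0.17, an unadjusted p of 0.000849 and an adjusted p of 0.080 by the exact binomial test. With TMM factors taken over all genes with reads, an alternative chosen after seeing the data, the adjusted p of the exact binomial test was 0.0176 and 1.07% of genes were called. With TMM factors over the genes tested it was 0.119, and with ERCC scaling the log2 ratio was 0.075 with an adjusted p of 0.523. The chain of Syp-201 had 1303 of 1339 full-chain reads in replicate 1 and 747 of 780 in replicate 2, or 97.3% and 95.8%. The other 31 chains were rare.

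Of the 7 most abundant chains outside the annotation over all members (the leading 5 with ties at 9 reads kept), 3 were of Syp. The donor 3 bases upstream of the annotated one (intron chrX:7645197-7648556, capitals in the Syp sequence) had 6 reads in each library. The next exon opens with the same 3 letters, so these reads do not tell whether the donor or the acceptor moved. A chain with the intron chrX:7645200-7651836, which skips an exon of 331 bases, 324 of them coding, had 2 and 7 reads. A chain with a donor at the other end of the gene (intron chrX:7638805-7639857) had 6 and 3. Each was under 1% of Syp full-chain reads in either library.

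Incomplete Syp reads were concentrated toward the 3′ end. They were 35.0% of Syp reads in replicate 1 and 39.3% in replicate 2, and 211 and 141 of them lay in the last exon alone, which is 1420 bases long. The first junction had 1327 and 773 reads and the last 1839 and 1135, or 72.2% and 68.1%. The annotated share was 63.3% and 58.1%, with an adjusted p of 0.541 by Fisher's exact test.

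**Figure D3:**
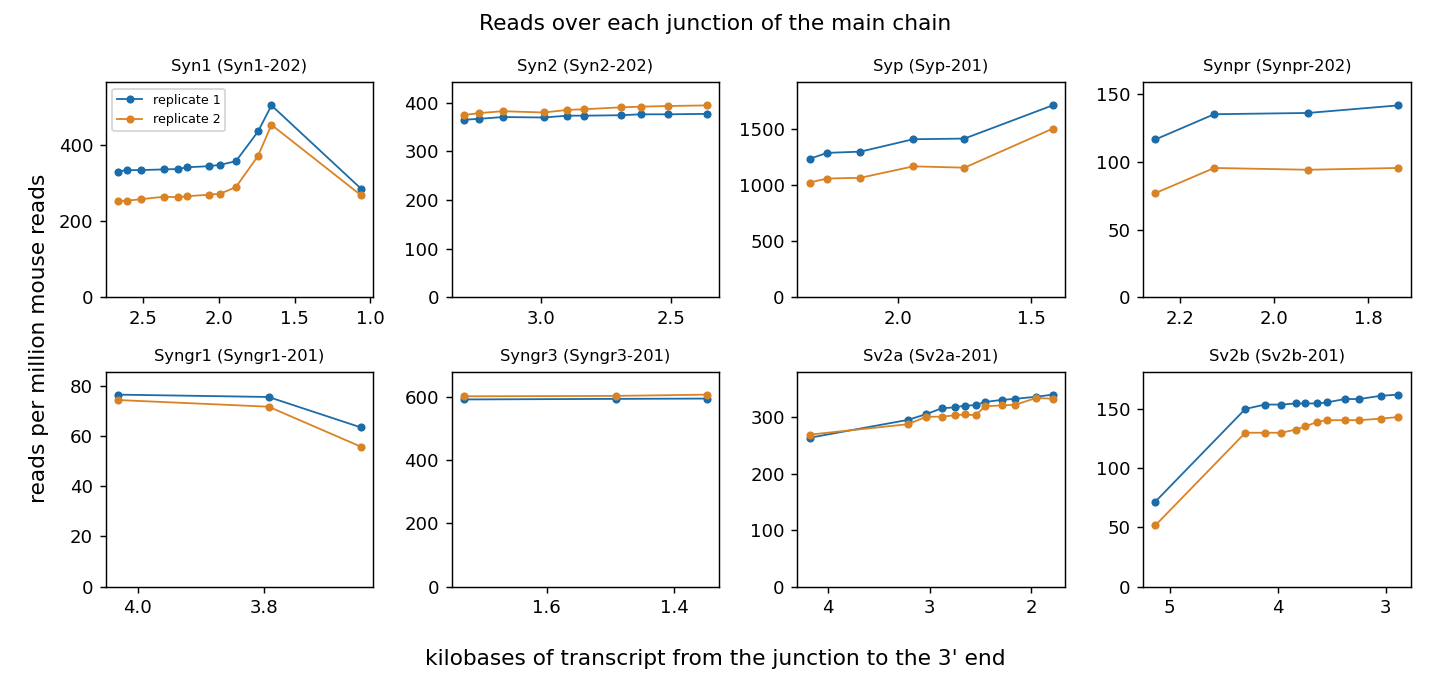
RPM of the reads over each junction of the main chain of 8 genes, against kilobases of transcript from the junction to the 3′ end, in replicate 1 and replicate 2. Syngr3 and Syn2 are nearly level, Syp and Syn1 rise toward the 3′ end, and the last point of Syn1 and Syngr1 and the first of Sv2b are low where other splice partners hold part of the reads.

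Synaptoporin was read from its downstream start. Synpr (ENSMUSG00000056296.17, chr14:13284780-13616340, plus strand) encodes a relative of synaptophysin found in a subset of terminals. It had 156 and 81 reads, 145 and 107 RPM (126 ± 26.9, SD, n = 2), rank 1597, the lowest of the 8 members tested. The log2 ratio was -0.43, with an unadjusted p of 0.0293 and an adjusted p of 0.488 by the exact binomial test. The chain of Synpr-202 (265 amino acids, 2576 bases) had 122 of 138 full-chain reads in replicate 1 and 57 of 68 in replicate 2. The upstream start of Synpr-201 (285 amino acids, 2541 bases) had 1 read and 0 as that full chain, and other chains from the upstream start had at most 1 read each.

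A first exon outside the annotation opened the next most abundant Synpr chain. Whether that exon begins at a transcription start was not tested. The chain's intron chr14:13332651-13493507 had 7 of 138 and 7 of 68 reads at the shared acceptor, or 5.07% (Wilson interval 2.48 to 10.1) and 10.3% (5.08 to 19.8). Fisher's exact test gave an unadjusted p of 0.237. The models began at chr14:13332545 in replicate 1 and chr14:13332111 in replicate 2, 47765 and 47331 bases downstream of the upstream RefSeq start and 121413 and 121847 bases upstream of the downstream start. A related chain with 1 more exon had 2 and 1 reads. The 250 bases before each RefSeq start of Synpr (GRCm38.p6, plus strand) are shown because the reads came from 1 of them nearly alone.
Upstream, chr14:13284530-13284779: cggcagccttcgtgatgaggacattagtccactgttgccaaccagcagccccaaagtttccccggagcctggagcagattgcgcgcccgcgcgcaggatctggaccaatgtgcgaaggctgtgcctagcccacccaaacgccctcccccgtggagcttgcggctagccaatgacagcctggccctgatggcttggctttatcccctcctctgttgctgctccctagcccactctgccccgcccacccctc
Downstream, chr14:13453708-13453957: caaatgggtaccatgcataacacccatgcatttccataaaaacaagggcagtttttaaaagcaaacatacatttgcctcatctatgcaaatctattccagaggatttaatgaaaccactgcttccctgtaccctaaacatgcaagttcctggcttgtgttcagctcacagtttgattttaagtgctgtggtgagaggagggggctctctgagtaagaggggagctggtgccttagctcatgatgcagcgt
The window of the little-used start is 64% G and C with 13 CpG, and that of the used start is 44.4% with 1 CpG, where the median of 32851 promoter windows was 52.4%.

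Synaptogyrin 3 was the most uniformly read member. Syngr3 (ENSMUSG00000007021.5, chr17:24685092-24689955, minus strand, main transcript Syngr3-201, 229 amino acids, 1965 bases) encodes a synaptogyrin known to bind the dopamine transporter. It had 669 and 483 reads, 624 and 641 RPM (632 ± 12.1, SD, n = 2), rank 166. The log2 ratio was 0.04, and the adjusted p was 1 by the exact binomial test. The annotated chain had 622 of 635 and 440 of 452 full-chain reads, or 98.0% and 97.3%. The chains next in order had 5 and 3 reads and 2 and 5 reads, each with a splice site outside the annotation. The first junction had 99.5% and 99.1% of the reads of the last, and 93.0% and 91.1% of all reads were on annotated models.

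Synaptogyrin 1 was counted mostly from reads with no junction. Syngr1 (ENSMUSG00000022415.12, chr15:80091334-80119501, plus strand) encodes a neuronal synaptogyrin. It had 373 and 263 reads, 348 and 349 RPM (348 ± 0.843, SD, n = 2), rank 401. Models of 1 exon held 288 reads in replicate 1 (77.2%) and 204 in replicate 2 (77.6%). All of them lay in the distal last exon of 3647 bases, from chr15:80115921 in replicate 1 and chr15:80115855 in replicate 2 to chr15:80119501. The deposited tables label the former Genomic and the latter incomplete. Without Genomic models the log2 ratio of Syngr1 was 2.16 with an adjusted p of 1.92e-35 by the exact binomial test, against 0.006 and 1 with all models. At that setting 1.66% of genes were called. The counts left at that setting follow the label, which differs between the libraries.

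Among the spliced Syngr1 reads both last exons were present. The distal one (intron chr15:80111745-80115854, Syngr1-201, 234 amino acids, 4180 bases) had 68 of the 82 reads of replicate 1 at the shared donor and 42 of 56 in replicate 2, or 82.9% (Wilson interval 73.4 to 89.5) and 75.0% (62.3 to 84.5). The proximal one (intron chr15:80111745-80113165, Syngr1-202, 191 amino acids, 819 bases) had 12 and 14 reads, 14.6% (8.57 to 23.9) and 25.0% (15.5 to 37.7). Fisher's exact test gave an unadjusted p of 0.183 for the proximal exon. As full chains they had 66 and 40 reads and 12 and 12 reads, and the next chain had 0 and 2. The reads with no junction lay in the distal last exon but cross no splice site. These shares leave them out and rest on 82 and 56 of the gene's reads, and counting them by position would raise the distal share.

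**Figure D4:**
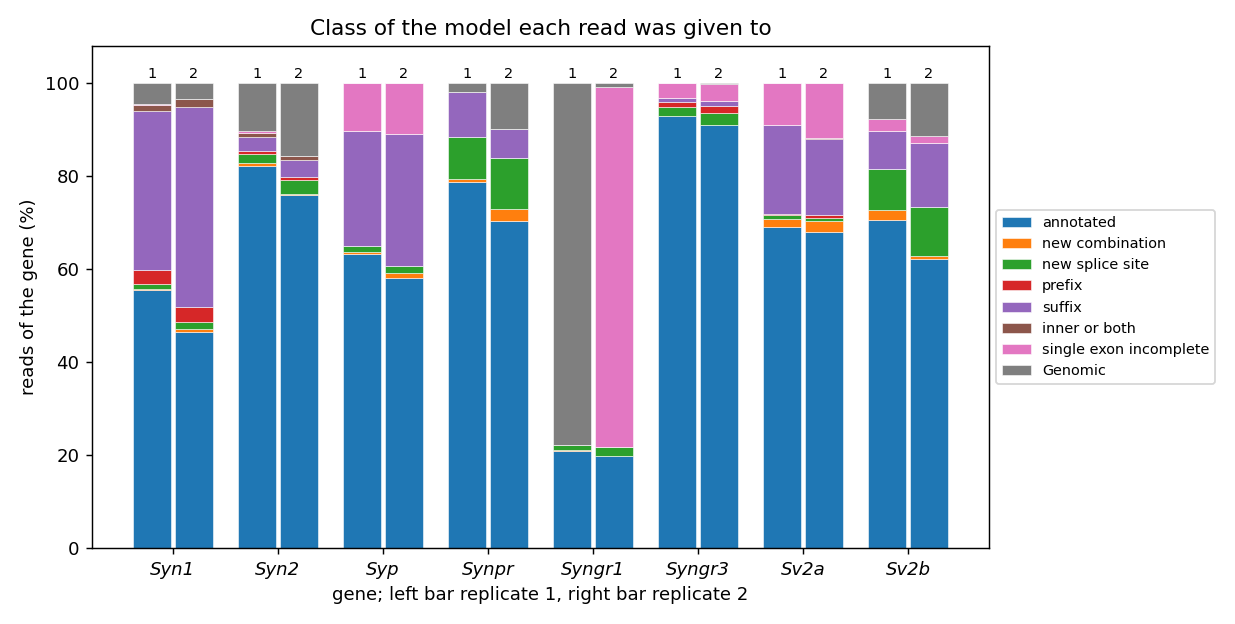
Share of each gene's reads by the class of the model they were given to, with replicate 1 as the left and replicate 2 as the right bar of a pair. Annotated models hold 93.0% and 91.1% for Syngr3 and 20.9% and 19.8% for Syngr1, whose remaining reads are mostly Genomic in replicate 1 and mostly incomplete in replicate 2.

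SV2A was read as 1 form with a rare skip of the exon that holds its start codon. Sv2a (ENSMUSG00000038486.9, chr3:96181151-96195521, plus strand, main transcript Sv2a-201, 742 amino acids, 4334 bases) encodes the target of the antiepileptic drug levetiracetam. It had 403 and 290 reads, 376 and 385 RPM (380 ± 6.40, SD, n = 2), rank 350, with a log2 ratio of 0.04. The annotated chain had 278 of 289 and 197 of 206 full-chain reads, or 96.2% and 95.6%. A chain with annotated splice sites in another combination (intron chr3:96181304-96186972) had 7 reads in replicate 1 and 4 in replicate 2, or 2.42% and 1.94%. It leaves out the second exon, chr3:96184639-96185607, 969 bases of which 622 are coding. The third chain had 0 and 2 reads. The first junction had 283 and 203 reads and the last 365 and 251.

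SV2B was read from a pair of first exons in similar amounts. Sv2b (ENSMUSG00000053025.13, chr7:75114894-75309262, minus strand) encodes the SV2 form best known from glutamatergic terminals. It had 194 and 124 reads, 181 and 165 RPM (173 ± 11.6, SD, n = 2), rank 1068, with a log2 ratio of -0.13. The proximal first exon (chr7:75308205-75308379, intron chr7:75206923-75308204, Sv2b-201, 5307 bases) had 77 of 157 reads at the shared acceptor in replicate 1 and 39 of 93 in replicate 2. That is 49.0% (Wilson interval 41.3 to 56.8) and 41.9% (32.4 to 52.1). The distal first exon (chr7:75308874-75309262, intron chr7:75206923-75308873, Sv2b-202, 5524 bases) had 60 and 38 reads, 38.2% (31.0 to 46.0) and 40.9% (31.4 to 51.0). The intervals of both exons overlap in each library, and Fisher's exact test gave an unadjusted p of 0.690 between the libraries. Neither first exon is coding, and both transcripts encode 683 amino acids.

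The remaining Sv2b reads at that acceptor came from starts or exons outside GENCODE M21. The intron chr7:75206923-75302421 had 4 and 5 reads, and its models began at chr7:75302552 and chr7:75302567, 57 and 42 bases downstream of a RefSeq start. A 34-base exon (chr7:75307966-75307999) behind the proximal first exon had 6 of 85 and 5 of 46 reads of that exon's donor, 7.06% (Wilson interval 3.28 to 14.6) and 10.9% (4.73 to 23.0), with an unadjusted p of 0.516 by Fisher's exact test. As whole chains each had 4 reads in replicate 1 and 5 in replicate 2. The 250 bases before the RefSeq starts of these exons (GRCm38.p6, minus strand) are shown since the reads resolve which start was used, with TATAAA or its reverse complement in capitals.
Distal, chr7:75309263-75309512: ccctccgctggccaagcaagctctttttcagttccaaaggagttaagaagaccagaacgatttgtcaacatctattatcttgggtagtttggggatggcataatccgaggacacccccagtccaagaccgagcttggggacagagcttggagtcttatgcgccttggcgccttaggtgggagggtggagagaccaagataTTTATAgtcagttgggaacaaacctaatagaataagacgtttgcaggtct
Proximal, chr7:75308387-75308636: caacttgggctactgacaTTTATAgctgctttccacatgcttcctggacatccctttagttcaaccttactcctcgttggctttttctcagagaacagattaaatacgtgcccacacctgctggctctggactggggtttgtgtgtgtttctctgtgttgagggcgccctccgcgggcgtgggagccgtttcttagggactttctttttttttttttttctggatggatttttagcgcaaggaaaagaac
Start outside GENCODE M21, chr7:75302610-75302859: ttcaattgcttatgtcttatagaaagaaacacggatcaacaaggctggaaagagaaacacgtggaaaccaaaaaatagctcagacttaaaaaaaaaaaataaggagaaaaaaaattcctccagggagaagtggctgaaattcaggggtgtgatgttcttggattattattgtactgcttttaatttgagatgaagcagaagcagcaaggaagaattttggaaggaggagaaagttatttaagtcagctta
The windows are 48.8%, 47.2% and 35.2% G and C. The capitals begin at position -50 from the distal start and at -232 from the proximal one, and the third window has none.

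**Figure D5:**
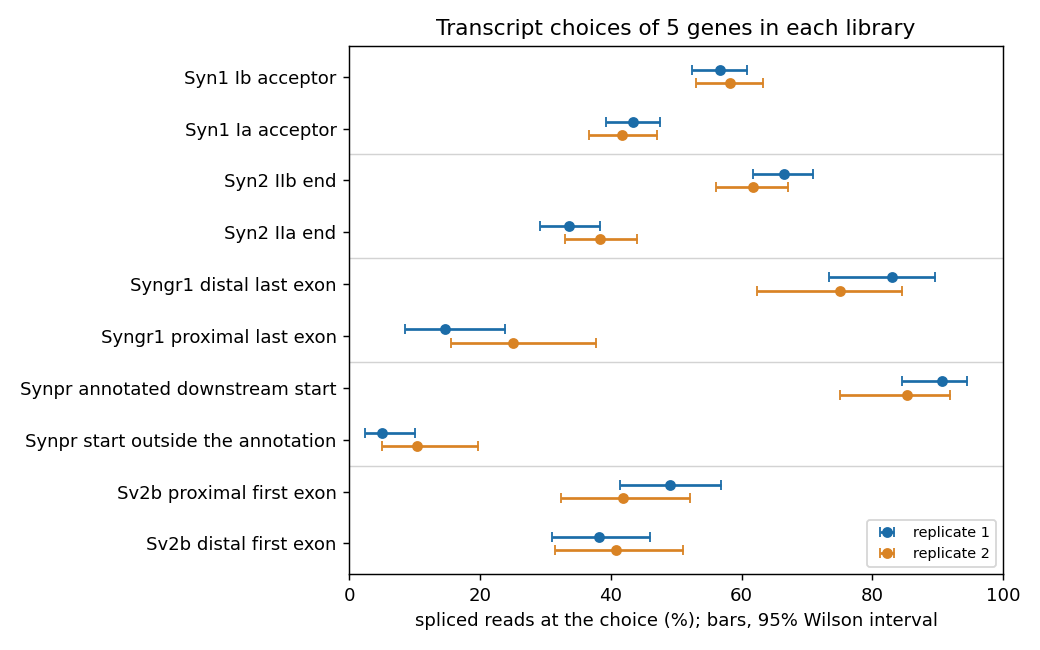
Share of spliced reads on each side of 5 transcript choices in replicate 1 and replicate 2, with 95% Wilson intervals. In each choice the intervals of the 2 libraries overlap, and the Syn1, Syn2, Syngr1 and Synpr choices each have 1 side above the other in both libraries while the Sv2b intervals overlap.

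Promoter windows of 250 bases were given by RefSeq for 7 of the 9 genes, 12 windows in all. Searched on both strands for TGACGTCA (the cyclic AMP response element), GCGGGGGCG (the Egr1 motif) and TATAAA (the TATA box), 5 windows held a motif. Syn1 held TGACGTCA, which 1.55% of 32851 windows held, and Syn2 and Syngr1 each held GCGGGGGCG, which 2.57% held. TATAAA, on either strand, was in 12.4% of all windows. The distal and proximal Sv2b windows held it only as its reverse complement, TTTATA, and that of the start outside GENCODE M21 held no match. A match is letters in this window and says nothing of binding.

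No difference in transcript choice was called in a member. For the share of the main chain among full chains, 0 of 8 members were called, against 0.242% of 4968 genes, and 0 had an unadjusted p under 0.05, against 4.97% of genes. The share was lower in replicate 2 in 8 of 8 members, and in 53.1% of all genes, whose median difference was -0.38 points. Over annotated chains alone it was lower in 3 of 8 members, equal in 3 and higher in 2. The 3 equal members (Syngr3, Syp and Sv2a) had reads on 1 annotated chain each, so their share could not differ. For the choice of splice partner, 0 of 5 member sites were called, against 0.0526% of 5708 sites, with 0 at an unadjusted p under 0.05, against 4.4% of sites. For the share of reads on annotated models, 0 of 8 were called, against 0.0808% of 6189 genes, while 3 (Syn1, Syn2, Syp) had an unadjusted p under 0.05, against 4.9% of genes. That share too was lower in replicate 2 in 8 of 8 members, with differences of -1.05 (Sv2a) to -9.05 points (Syn1), and in 54.8% of all genes, whose median moved from 76.9% to 75.5%. Depth and the cell makeup move with the library, and their part was not tested.

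Related genes stood mostly below the members. The 7 other members of the synaptophysin, synaptogyrin and SV2 families had a median of 1.79 RPM, and 0 of the 3 tested were called. Svop, an SV2-related transporter-like vesicle protein, led with 339 and 196 reads (288 ± 39.6 RPM, SD, n = 2), ahead of Sypl (47.7 ± 3.70) and Syngr2 (12.2 ± 1.47), which are the forms known from cells other than neurons. Sv2c had 2 and 1 reads. The 25 other vesicle proteins had a median of 209 RPM, with 0 of 24 tested called and a median log2 ratio of -0.12. They were led by Atp6v0c (1552 ± 106 RPM), a subunit of the proton pump that energises vesicles, Rab3a (1308 ± 15.5), the vesicle GTPase, and Atp6v1b2 (1207 ± 65.1), another pump subunit. The 10 partners and kinases of synapsins had a median of 125 RPM and 0 of 9 called, led by Camk2b (716 ± 24.7 RPM) and Prkaca (518 ± 13.2), kinases known to phosphorylate synapsins.

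The genes nearest to each member in log2 RPM over the 2 libraries, among genes with 10 or more reads, were Fth1 for Syp, Arf3 for Syngr3, Oxct1 for Syn1, Sh3glb2 for Syn2, Eri3 for Sv2a, Tmem179 for Syngr1, Letm1 for Sv2b and Tmem184c for Synpr. Their Euclidean distances were 0.0067 (Tmem179) to 0.0397 (Oxct1). Over 2 libraries of 1 group this measure ranks level alone.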

How the data were processed

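Long-read RNA-seq of 2 libraries of 1 group was analysed. Per the file headers and the notes deposited with each library, the authors aligned reads to mm10, assigned them to transcript models with TALON and GENCODE M21, and deposited raw read counts per model, separately for each library. No source used here names the aligner. The deposited models' exon positions gave introns and ends. Here counts were summed by gene and class over 1072344 and 753520 mouse reads and scaled to RPM, with spike-ins left out. Means and SDs are over the 2 libraries.

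Tests were exact binomial (gene counts, at least 10 reads) and Fisher's exact (shares, at least 20 reads in each library, and for splice sites a mean share of at least 5% for the second partner), two-sided, with Benjamini-Hochberg adjustment over all genes or sites. Log2 ratios used a pseudocount of 0.5 reads. Reads carry no molecular identifier here, so p-values, 95% Wilson intervals and the limit of 3 reads cover counting error only, and a p compares these libraries, not conditions. Scripts used Python 3.11.15, pandas 2.3.3, scipy 1.17.1, statsmodels 0.14.6 and edgeR 4.0.16 (TMM factors alone), and the tests were checked on simulated data.

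The members, and the 11 gene lists (family relatives, other vesicle proteins, synapsin partners and kinases, nested Timp genes, and 7 lists of cell or region markers), were chosen with earlier results of these data known. Named are all 9 members, their 3 most abundant spliced chains, tested splice sites, the 5 most abundant chains outside the annotation with ties, the nearest gene to each in level, and the 3 most abundant or called genes of each list, of which some are not reported here. Alternatives were other scalings, read minimums and model classes, and leaving out each replicate.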

Additional observations from a re-analysis of the deposited data

Results flagged for a closer look

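Reads in genes outside the annotation, on the strand opposite a member, were used in no comparison and stood above the limit of 3 reads in both libraries at 3 places. In introns of Syn1 there were 6 reads in replicate 1 and 14 in replicate 2, or 5.60 and 18.6 RPM, in 1 model of 1 exon in each library. In introns of Syn2 there were 4 and 15 reads, or 3.73 and 19.9 RPM, in models of 1 exon. Over an exon of Syngr1 there were 8 and 5 reads, or 7.46 and 6.64 RPM, also in models of 1 exon. The series has no control samples to set these against.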

How the results depend on the processing

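The members' median level of 380 RPM ranged from 376 to 385 when each replicate was left out, and was 398 over annotated models and 405 without Genomic models. Syngr1 went in level from 348 to 108.3 and 226 RPM under the same settings. The count of genes called between the libraries was 100 and became 323 with ERCC scaling (94.1% higher in replicate 2, against 41.0%), 35 over annotated models and 176 without Genomic models. ERCC scaling turned the log2 ratios of Syp to 0.075, Syn1 to 0.10 and Sv2b to 0.11, and TMM factors over all genes turned Syngr1 to -0.020. The count of genes called on the main chain was 12, and it was 1 over annotated chains and 5 with incomplete chains counted, each over its own set of genes tested. The difference in the main chain became 1.03 points for Syn1 and 0.81 for Synpr over annotated chains. Syngr3, Syp and Sv2a could only be at 0 there, as each had reads on 1 annotated chain. With incomplete chains counted the difference was 1.41 points for Sv2a. The count of splice sites called was 3, and it was 5 at 50 reads in each library, 17 without incomplete models and 0 by Fisher's exact test over annotated models, where 93 had an unadjusted p under 0.05. Genes called on annotated share went from 5 to 80 without Genomic models, where Syngr1 differed by -74.1 points. The cause was not tested, beyond the labels of Syngr1 models that differ between the libraries. Counting each single gene or site under each setting, 7 tested values reversed, 5 gained a call and the others did neither and lost none. Of the values with no test 39 moved by no more than 1 SD and 10 by more. The 39 include every value with a replicate left out, which with 2 libraries lies within 1 SD of the mean by construction. No paired analysis was possible because the series holds 1 group. Library-against-library tests cannot be repeated with a replicate left out. At this depth a gene with 1 read, such as Syn3, cannot be told from a gene with 0.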
